A study of Homo sapiens with 3 samples.

Results

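The genes of the replication-dependent histones were followed on 3 oligonucleotide arrays of KYSE180 cells, which derive from a human squamous carcinoma of the oesophagus. Members were taken by name. A probe set, a group of short probes read as 1 value, belonged where the platform's gene symbol began with the older HIST1H, HIST2H or HIST3H or with H2AC, H2BC, H3C or H4C, or was H1-1 to H1-6. This gave 114 of 49293 probe sets. Of these, 105 named 1 symbol only, for 62 genes, and 9 named several symbols and were kept apart. All 105 symbols were found in a RefSeq gene table, and 1 of the probe sets was for a pseudogene, H2BC20P. The single-symbol probe sets fell into 6 for linker histone H1, 26 for H2A, 41 for H2B, 16 for H3 and 16 for H4.

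Each group had 1 array. HOTAIR vector cells were transfected with LZRS_HOTAIR, which carries the long non-coding RNA HOTAIR, in Polyfect. HOTAIR siRNA cells received a mixture of 2 Stealth siRNAs against HOTAIR, 100 pmol, in Lipofectamine2000, and RNA was taken 48 h after transfection. Control cells are labelled only as control, and the labels do not say which reagent or negative-control RNA, if any, that sample got. Reagent and type of transfected molecule therefore change together with HOTAIR between the arms and cannot be told apart from it. The siRNA sample's title and cell line field give KYSE180, while its source name speaks of a HOTAIR cell line. The annotation named 0 probe sets for HOTAIR, so neither manipulation was checked on these arrays. Of 10 squamous epithelium markers, 7 were measured and all 7 were above the array median on each array, while 0 of 7 fibroblast markers and 0 of 6 measured leukocyte markers were. Of 5 endothelial markers, 0 were above it on the vector array, 0 on the siRNA array and 1 on the control array.

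Replication-dependent histones package DNA as it is copied, and their genes lie in clusters, are switched on in S phase through NPAT and are read from short genes without introns. Their mRNAs usually end in a stem-loop bound by SLBP and not in a poly(A) tail. Some of the genes, H2BC5, H2BC12 and H2BC21 among them, are known to make polyadenylated mRNAs as well. The 3' IVT labelling used here copies RNA from its poly(A) tail, so histone mRNA without a tail is a poor template for it. Which histone RNA gave the signals below was not tested. Many histone genes are near-identical in their coding sequence, so probes for one can bind RNA of another.

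The upstream sequence of 5 members is shown. They passed 2-fold between the arms (H2BC11, H3C10), are H2B genes with long RefSeq spans (H2BC5, H2BC12) or are an H4 gene lower in both arms (H4C12). Each run is the 250 bases upstream of the gene's start, 5′ to 3′ on the gene's strand, from RefSeq on GRCh38.p14. Capitals mark every match, on either strand, to 3 elements. The octamer was searched as ATTTGCAT and the CCAAT box by the letters of its name. For the TATA box the search used TATAAA. An element on the other strand appears as its reverse complement. TATA matches on opposite strands can overlap, as they do near the start of the H2BC11 and H2BC12 runs. H2BC11 lies at chr6:27132796-27133045 on the minus strand, H2BC12 at chr6:27146859-27147108 on the minus strand and H2BC5 at chr6:26157871-26158120 on the plus strand. H3C10 lies at chr6:27809801-27810050 on the plus strand and H4C12 at chr6:27831561-27831810 on the minus strand.
H2BC11: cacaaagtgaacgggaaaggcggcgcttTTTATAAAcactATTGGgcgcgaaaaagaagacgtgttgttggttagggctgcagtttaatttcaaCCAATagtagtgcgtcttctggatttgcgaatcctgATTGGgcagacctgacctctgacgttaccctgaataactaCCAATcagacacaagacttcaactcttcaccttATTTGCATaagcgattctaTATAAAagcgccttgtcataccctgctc
H2BC12: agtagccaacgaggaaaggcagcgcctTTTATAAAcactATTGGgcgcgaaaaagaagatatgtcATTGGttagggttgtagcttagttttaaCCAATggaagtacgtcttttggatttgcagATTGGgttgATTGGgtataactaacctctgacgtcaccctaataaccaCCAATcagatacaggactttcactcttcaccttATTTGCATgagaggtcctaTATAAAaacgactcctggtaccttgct
H2BC5: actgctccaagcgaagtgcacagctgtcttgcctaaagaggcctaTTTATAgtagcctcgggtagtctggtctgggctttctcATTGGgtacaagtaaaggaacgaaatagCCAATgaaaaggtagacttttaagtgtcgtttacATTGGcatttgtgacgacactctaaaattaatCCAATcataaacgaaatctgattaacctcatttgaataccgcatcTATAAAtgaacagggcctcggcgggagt
H3C10: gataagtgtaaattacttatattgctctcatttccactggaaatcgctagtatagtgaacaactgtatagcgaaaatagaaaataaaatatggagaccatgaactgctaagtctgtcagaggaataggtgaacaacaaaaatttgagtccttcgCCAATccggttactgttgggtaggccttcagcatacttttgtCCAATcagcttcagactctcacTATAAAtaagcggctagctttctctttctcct
H4C12: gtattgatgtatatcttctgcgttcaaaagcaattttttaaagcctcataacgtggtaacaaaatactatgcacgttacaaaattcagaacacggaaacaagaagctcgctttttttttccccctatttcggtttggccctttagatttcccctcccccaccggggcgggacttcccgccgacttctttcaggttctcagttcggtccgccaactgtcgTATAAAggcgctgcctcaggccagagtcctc

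A promoter entry was found for 64 histone genes, among them 56 of the 62 with a single-symbol probe set. The octamer, the binding element of POU2F1 in H2B genes, was in 14 of 18 H2B and 11 of 16 H2A runs, in 1 of 11 H3 runs and in 0 of 13 H4 and 0 of 6 H1 runs, against 1.63% of all 35116 promoter entries over the same length. CCAAT was in all 6 H1, 16 H2A, 18 H2B and 11 H3 runs but in 3 of 13 H4 runs, against 32.0% of all. TATAAA was in 3 of 6 H1, 12 of 16 H2A, 12 of 18 H2B, 8 of 11 H3 and 7 of 13 H4 runs, against 10.7% of all. A match describes the letters only.

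Histone signals were lowest in siRNA cells, and vector cells lay between siRNA and control cells for most classes. Values are log2 signals, so a difference of 1 is 2-fold, and differences are written as one array over another. The median over the 105 single-symbol probe sets was 4.57 in vector cells, 4.36 in siRNA cells and 4.94 in control cells. Over all 49293 probe sets the array medians lay closer together, at 5.23 for vector, 5.25 for siRNA and 5.27 for control. The siRNA array was the lowest of the 3 for 78 of the 105 (74.3%), against 33.8% of all probe sets. Vector was lowest for 25 (23.8%), against 37.5%, and control for 2, against 28.3%. The control array was highest for 77 (73.3%), against 56.2% of all. With 1 array per group none of these differences has a replicate check, and no test was made. In bulk RNA, fewer cells in S phase and less histone RNA per cell cannot be told apart. The count with siRNA lowest was 81 after repeated quantile normalization and 72 (68.6%, against 29.3% of all) after cyclic loess, which left 54 (51.4%, against 39.0%) highest in control. These counts under other scalings were added after the values were seen.

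**Figure D1:**
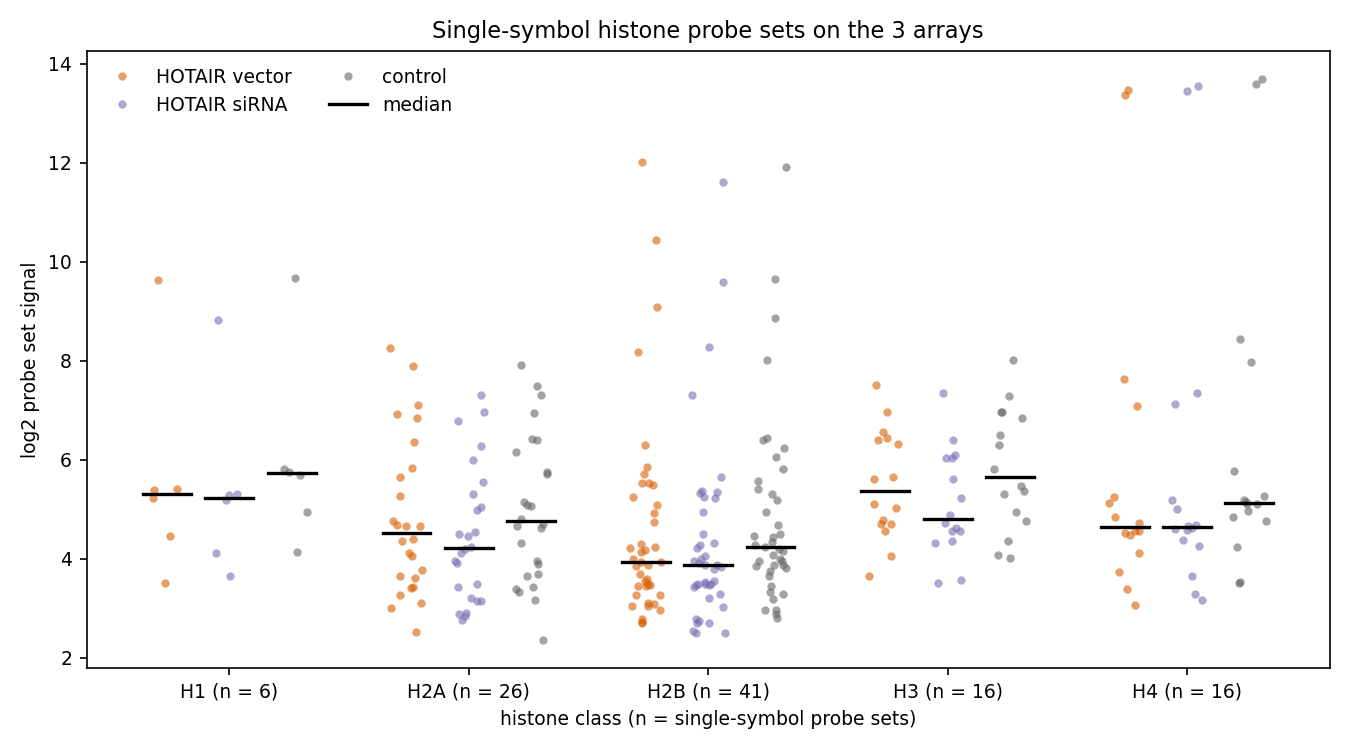
Log2 signal of the 105 single-symbol histone probe sets (points, vertical axis) by histone class, with the vector array left, the siRNA array in the middle and the control array right in each class, and a bar at each median. The H3 median is 5.36 in vector, 4.81 in siRNA and 5.64 in control cells, while the H4 median is 4.64 in both vector and siRNA cells and 5.12 in control cells.

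In siRNA cells against control cells the median difference of the single-symbol histone probe sets was -0.51, with a range of -1.31 to 0.40, and 103 of 105 were below 0. Over all 49293 probe sets that median was -0.16, and 31302 were below 0. At least 2-fold lower were 11 (10.5%), from 10 genes, against 1.12% of all probe sets, and 0 were 2-fold higher, against 9.34%. At 1.5-fold, 44 (41.9%) were lower, against 12.7% of all, and 0 higher, against 15.0%. Centring on all probe sets gave a histone median of -0.35 and 3 probe sets 2-fold lower, those of H2BC11, H2BC10 and 1 of H2BC9. After cyclic loess, which brings the median of all probe sets to 0.01, the histone median was -0.32 and 2 probe sets (H2BC11 and H2BC10) were 2-fold lower. After quantile normalization 10 of the 11 were kept among 14.

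In vector cells against control cells the median was -0.27, with a range of -0.99 to 0.96, beside -0.18 over all probe sets. No histone probe set passed 2-fold, with 0 higher, against 9.91% of all, and 0 lower, against 1.10%. At 1.5-fold, 3 were higher, against 15.7%, and 25 (23.8%) lower, against 14.2%. The 3 were 1 probe set each of H2AC11, H2BC5 and H2BC4. Centred on all probe sets the histone median was -0.09, and after cyclic loess it was -0.06.

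The vector and siRNA comparisons share the control array, so the arms were also set directly against each other. In vector cells against siRNA cells the histone median was 0.22, with a range of -0.49 to 1.35, beside -0.00 over all probe sets. Above 0 were 79 of 105, against 24369 of all 49293. At least 2-fold higher were 2, H2BC11 and H3C10, against 1.18% of all, and 0 were lower, against 1.05%. At 1.5-fold, 19 (18.1%) were higher, against 3.84% of all, and 0 lower, against 3.36%. Both 2-fold calls were kept under quantile normalization, cyclic loess and centring, and the histone median under these was 0.23, 0.25 and 0.22.

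**Figure D2:**
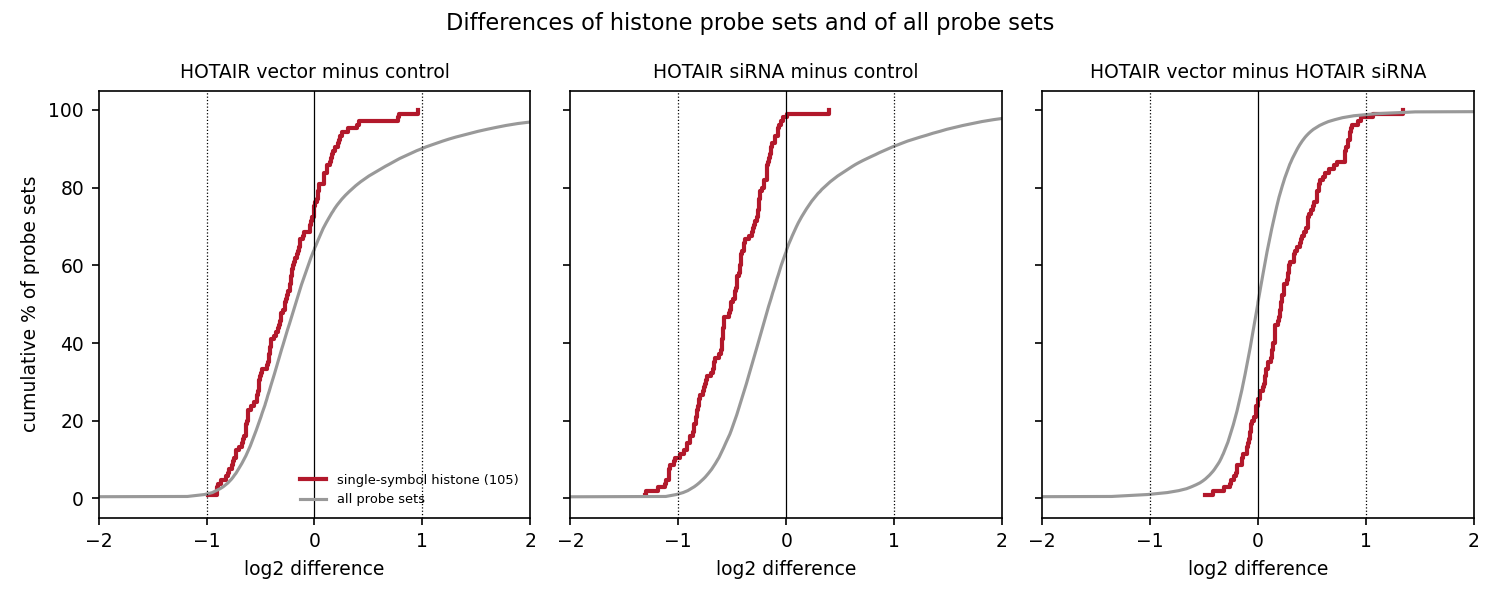
Cumulative percentage (vertical axis) of the 105 single-symbol histone probe sets (red) and of all probe sets (grey) against the log2 difference (horizontal axis), for vector over control, siRNA over control and vector over siRNA, with dotted lines at 2-fold. The histone curve lies left of the grey one for siRNA over control (medians -0.51 and -0.16) and right of it for vector over siRNA (0.22 and -0.00).

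The differences of siRNA cells from either other group were larger among brighter histone probe sets. For the 36 single-symbol probe sets with a mean signal of at least 5.28, the median of such means over the whole table, the median for siRNA over control was -0.68, beside -0.14 for all such probe sets. For vector over siRNA it was 0.40, beside 0.03, and for vector over control -0.25, beside -0.13. For the 69 dimmer ones these medians were -0.46, 0.16 and -0.27, beside -0.16, -0.03 and -0.20 for all dimmer probe sets. Among the 105, 24 were below the array's lower quartile on the vector array, 31 on the siRNA array and 18 on the control array. Signals this low can lie close to background, where differences can be compressed, which was not tested here.

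**Figure D3:**
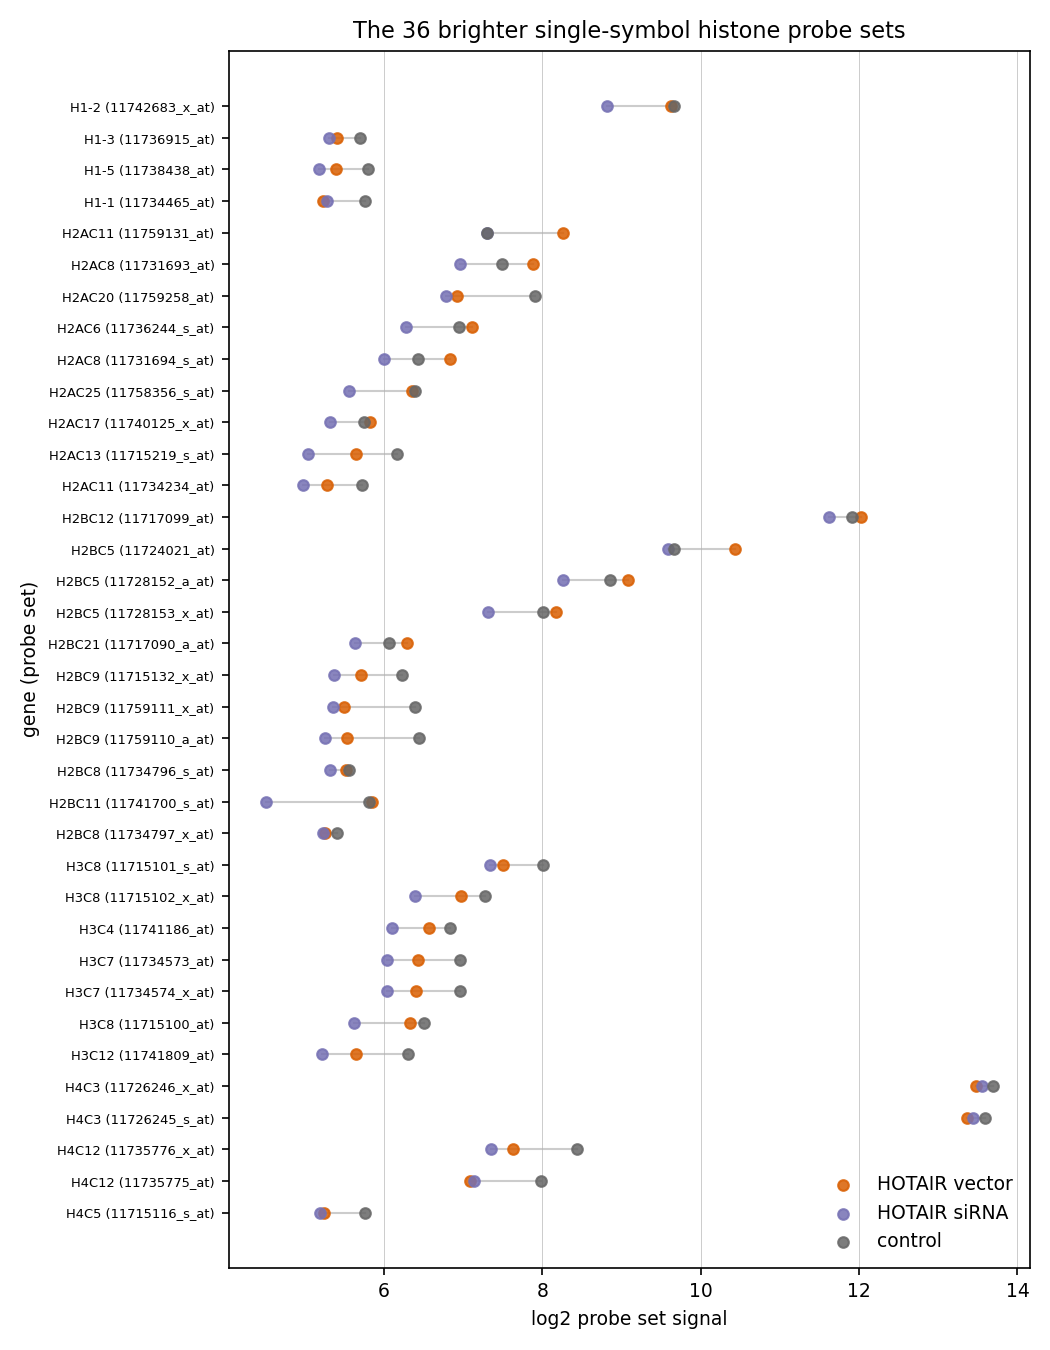
Log2 signals (horizontal axis) of the 36 single-symbol histone probe sets with a mean at or above 5.28, 1 row each, named by gene and probe set and ordered by class and mean, with the vector array in orange, the siRNA array in purple and the control array in grey. H2BC11 spans 5.85 in vector, 4.50 in siRNA and 5.82 in control cells, while H4C3 stays between 13.37 and 13.70 on all arrays.

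Linker histones H1, which bind DNA between nucleosomes, were highest in control cells for all 6 probe sets, against 56.2% of all 49293. After cyclic loess 4 were, against 39.0%. The siRNA array was lowest for 4 of the 6, against 33.8%. The H1 medians were -0.45 for vector over control, -0.56 for siRNA over control and 0.15 for vector over siRNA, and 0 passed 2-fold. For 6 probe sets this is near the 2-fold shares of all probe sets given above. H1-2 had a log2 signal of 9.62 in vector cells, 8.82 in siRNA cells and 9.67 in control cells. The siRNA array alone stood apart for H1-2, by -0.85 from control, while vector cells differed from control by -0.05. H1-5 had 5.39 in vector, 5.18 in siRNA and 5.80 in control cells. H1-3 had 5.40 in vector, 5.31 in siRNA and 5.70 in control cells. H1-1 had 5.23 in vector, 5.28 in siRNA and 5.76 in control cells. In these 3 genes both arms lay below control and within 0.21 of each other. H1-4 had 4.45 in vector, 4.11 in siRNA and 4.94 in control cells. H1-6, the testis linker histone, had 3.51 in vector, 3.64 in siRNA and 4.14 in control cells, the first of these below its array's lower quartile.

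H2A, which pairs with H2B on the nucleosome's flanks, had a median of -0.51 for siRNA over control and 0.29 for vector over siRNA. The siRNA array was lowest for 21 of 26 H2A probe sets, against 33.8% of all probe sets. The H2A median for vector over control was -0.03 and turned to 0.18 after cyclic loess. H2AC8 was highest in vector cells and lowest in siRNA cells on both of its probe sets. The brighter had 7.88 in vector, 6.96 in siRNA and 7.49 in control cells, and the other 6.84 in vector, 6.00 in siRNA and 6.43 in control cells. H2AC6 had 7.11 in vector, 6.28 in siRNA and 6.95 in control cells. H2AC25, on chromosome 1 apart from that chromosome's main histone cluster, had 6.36 in vector, 5.55 in siRNA and 6.39 in control cells. For H2AC6 and H2AC25 vector and control cells were within 0.17 of each other, and siRNA cells were lower than vector cells by 0.83 and 0.81.

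Several H2A genes went another way. H2AC20 had 6.92 in vector, 6.79 in siRNA and 7.91 in control cells, so both arms were lower than control, with differences of -0.99 and -1.12, and close to each other. Its dimmer probe set had 3.10 in vector, 2.87 in siRNA and 3.68 in control cells. The probe sets of H2AC11 disagreed. One had 8.26 in vector, 7.30 in siRNA and 7.30 in control cells, high in vector cells only, and the other had 5.28 in vector, 4.98 in siRNA and 5.72 in control cells, highest in control. H2AC13 had 5.64 in vector, 5.04 in siRNA and 6.16 in control cells on its brightest probe set, with -1.12 for siRNA over control. Its other 2 probe sets had 4.66 in vector, 4.46 in siRNA and 4.66 in control cells, and 3.65 in vector, 2.84 in siRNA and 3.65 in control cells. Thus siRNA was lowest on all 3 of them, while vector differed from control on 1.

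H2AC17 had 5.83 in vector, 5.31 in siRNA and 5.74 in control cells, and on its other probe set 4.75 in vector, 4.19 in siRNA and 4.71 in control cells. H2AC16 had 4.40 in vector, 4.11 in siRNA and 5.15 in control cells (siRNA over control -1.03), and 4.37 in vector, 4.23 in siRNA and 5.06 in control cells. Both H2AC16 probe sets were thus highest in control cells, and both H2AC17 ones lowest in siRNA cells. H2AC21 had 3 probe sets with signals of 3.27 to 3.60 in vector, 3.13 to 3.49 in siRNA and 3.38 to 3.88 in control cells. The 3 of H2AC15 ran from 2.51 to 4.66 in vector, 2.76 to 4.53 in siRNA and 2.36 to 4.79 in control cells. The dimmest of these was the only single-symbol histone probe set that was highest in siRNA cells, with a difference of 0.40 from control at a level near background. The single probe sets of H2AC4, H2AC7, H2AC12 and H2AC14 had 3.76 to 4.67 in vector, 3.43 to 4.49 in siRNA and 3.94 to 5.09 in control cells. H2AC1, a testis gene, had 3.42 in vector, 2.91 in siRNA and 3.17 in control cells.

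H2B was below control on the siRNA array for all 41 probe sets, as were 31302 of all 49293 probe sets. The H2B median there was -0.42, and 5 were at least 2-fold lower, against 1.12% of all. Its median was 0.16 for vector over siRNA and -0.21 for vector over control, which turned to 0.02 after cyclic loess. H2BC11 had the largest difference of any member. On its brightest probe set it had 5.85 in vector, 4.50 in siRNA and 5.82 in control cells, 2.48-fold lower in siRNA than in control cells. Vector and control cells differed there by 0.03. Another probe set had 4.23 in vector, 3.49 in siRNA and 4.08 in control cells, and its last, near background, 3.55 in vector, 3.55 in siRNA and 3.65 in control cells. The order of the arrays on the 4.23 one was that of the brightest, but with a difference of -0.58 from control.

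H2BC5, H2BC12, H2BC21 and H2BC4, which have long spans in RefSeq, were higher in vector than in siRNA cells on at least 1 probe set each. So were 79 of all 105 single-symbol probe sets. H2BC18, which has a long span too, had a mean of -0.01 for vector over siRNA, with a range of -0.07 to 0.07. H2BC5 had 10.44 in vector, 9.59 in siRNA and 9.66 in control cells on 1 probe set. On the others it had 9.08 in vector, 8.27 in siRNA and 8.86 in control cells, and 8.17 in vector, 7.31 in siRNA and 8.01 in control cells. Vector over siRNA was 0.85, 0.81 and 0.86, while vector over control was 0.78 on the first and 0.22 and 0.16 on the others. H2BC4 showed the same split, with 5.08 in vector, 4.21 in siRNA and 5.30 in control cells on 1 probe set, and 4.73 in vector, 3.88 in siRNA and 3.95 in control cells on the other. Its probe sets gave 0.87 and 0.85 for vector over siRNA, but -1.08 and -0.07 for siRNA over control. For both genes, then, the difference between the arms was alike across probe sets, and the place of the control was not.

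H2BC12 had 12.02 in vector, 11.62 in siRNA and 11.90 in control cells, a smaller difference in the same order, and its second probe set, 4.21 in vector, 4.28 in siRNA and 4.46 in control cells, had another order. H2BC21 had 6.29 in vector, 5.64 in siRNA and 6.06 in control cells. Its other 2 probe sets carried identical values, 3.05 in vector, 2.50 in siRNA and 2.95 in control cells, and are 1 measurement, though both stand in the totals of 105. Vector was highest on all of the H2BC21 probe sets. Taking the 7 genes whose RefSeq span exceeds 1000 bases (the named 4 with H2BC18, H3C4 and H3C6, a split chosen after the values were seen), vector was highest for 8 of 15 probe sets, with the identical pair counted once. For the 55 genes with shorter spans it was highest for 16 of 89, against 22.9% of all probe sets. The medians of the longer genes over these 15 were 0.01 for vector over control, -0.27 for siRNA over control and 0.47 for vector over siRNA, and those of the shorter ones -0.35, -0.58 and 0.20.

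Other H2B genes were lower in both arms. H2BC9 had 5.54 in vector, 5.25 in siRNA and 6.44 in control cells on 1 probe set. The other 2 had 5.49 in vector, 5.35 in siRNA and 6.39 in control cells, and 5.70 in vector, 5.37 in siRNA and 6.23 in control cells. Control was highest on all 3, with -0.90 to -0.53 for vector over control and -1.19 to -0.86 for siRNA over control. H2BC6 had 4.17 in vector, 3.95 in siRNA and 4.93 in control cells, with control highest on its other 2 probe sets too. H2BC3 had 3.94 in vector, 3.48 in siRNA and 4.28 in control cells, and 3.09 in vector, 2.54 in siRNA and 3.32 in control cells. H2BC26 had 3.86 in vector, 3.82 in siRNA and 4.49 in control cells, and 3.26 in vector, 3.46 in siRNA and 3.88 in control cells. All 7 of the probe sets of H2BC6, H2BC3 and H2BC26 were highest in control cells.

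Little difference was seen for H2BC8, which had 5.52 in vector, 5.32 in siRNA and 5.56 in control cells, and 5.25 in vector, 5.23 in siRNA and 5.41 in control cells. H2BC10 was called 2-fold lower in siRNA cells on a probe set with 3.26 in vector, 2.69 in siRNA and 3.99 in control cells. Its other 2 differed from control by -0.42 and -0.24 in siRNA cells, and the level of 2.69 was below the array's lower quartile of 3.62. H2BC7 had 3 probe sets of 3.47 to 3.69 in vector, 3.49 to 3.91 in siRNA and 3.80 to 4.16 in control cells. H2BC18 had 4, of 2.71 to 4.13 in vector, 2.70 to 4.05 in siRNA and 2.80 to 4.33 in control cells. H2BC13, H2BC14, H2BC15 and H2BC17 had 2.78 to 4.93 in vector, 2.73 to 4.94 in siRNA and 3.19 to 5.19 in control cells, all highest in control. The pseudogene H2BC20P had 4.30 in vector, 4.31 in siRNA and 4.44 in control cells. The testis gene H2BC1 had 3.11 in vector, 3.43 in siRNA and 3.75 in control cells.

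H3, which with H4 forms the nucleosome's core tetramer and carries most of the well-known tail marks, was lowest in siRNA cells throughout. All 16 H3 probe sets were lowest in siRNA cells, against 33.8% of all 49293. After cyclic loess 14 were, against 29.3%, and after quantile normalization 15, against 33.1%. The median for siRNA over control was -0.75, with 11 lower by 1.5-fold, against 12.7% of all, and 2 by 2-fold, against 1.12%. For vector over siRNA the median was 0.35, with a range of 0.15 to 1.06. H3C10 had 5.61 in vector, 4.55 in siRNA and 5.31 in control cells, highest in vector cells. Its second probe set had 4.56 in vector, 4.31 in siRNA and 4.36 in control cells, in the same order with a smaller spread. H3C12 had 5.65 in vector, 5.22 in siRNA and 6.30 in control cells, and H3C3 had 5.02 in vector, 4.73 in siRNA and 5.81 in control cells. Both were 2-fold lower in siRNA than in control cells, with differences of -1.07 and -1.08, and vector cells lay between.

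H3C8 had 4 probe sets. They had 7.50 in vector, 7.34 in siRNA and 8.01 in control cells, then 6.97 in vector, 6.39 in siRNA and 7.28 in control cells. Another had 6.33 in vector, 5.62 in siRNA and 6.51 in control cells, and the last 5.10 in vector, 4.88 in siRNA and 5.48 in control cells. All 4 gave the same order, with control highest and vector between. H3C7 had 6.43 in vector, 6.04 in siRNA and 6.96 in control cells, and 6.40 in vector, 6.04 in siRNA and 6.96 in control cells. H3C4 had 6.57 in vector, 6.10 in siRNA and 6.83 in control cells. H3C1 had 4.70 in vector, 4.36 in siRNA and 4.94 in control cells, and 4.05 in vector, 3.57 in siRNA and 4.01 in control cells. H3C7 and H3C4 thus followed the order of H3C8, and the H3C1 probe sets differed from each other only in which of vector and control was higher. H3C2, H3C6 and H3C11 had 3.65 to 4.77 in vector, 3.50 to 4.61 in siRNA and 4.07 to 5.37 in control cells.

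For H4 the arms lay close to each other. Its median was -0.46 for vector over control and -0.47 for siRNA over control. Vector over siRNA had a median of -0.03, beside -0.00 over all probe sets. There 0 of 16 were 1.5-fold higher, against 3.84% of all, and 0 lower, against 3.36%. For 16 probe sets these counts are near the shares. Control was highest for 15 of 16, against 56.2% of all, and for 11 after cyclic loess, against 39.0%. The siRNA array was lowest for 7, against 33.8%. H4C12 had 7.63 in vector, 7.36 in siRNA and 8.44 in control cells, and 7.09 in vector, 7.13 in siRNA and 7.98 in control cells. Both arms were thus lower than control on both, with -0.82 and -0.89 for vector over control and -1.09 and -0.85 for siRNA over control. H4C3, at the top of the scale, had 13.48 in vector, 13.56 in siRNA and 13.70 in control cells, and 13.37 in vector, 13.44 in siRNA and 13.59 in control cells. Signals this high can be compressed, and vector over control was -0.22 on both.

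H4C5 had 5.25 in vector, 5.19 in siRNA and 5.76 in control cells, and 4.52 in vector, 5.0 in siRNA and 5.14 in control cells. Its second probe set had the lowest vector over siRNA value of the 105 (-0.49). H4C8 was the H4 probe set in which vector exceeded control, with 5.12 in vector, 4.63 in siRNA and 5.10 in control cells. H4C6 had 4.71 in vector, 4.25 in siRNA and 5.19 in control cells. H4C9 had 4.47 in vector, 4.67 in siRNA and 5.27 in control cells, and 3.72 in vector, 3.64 in siRNA and 4.24 in control cells. H4C6 and H4C9 were highest in control cells, with the arms in either order. The 5 of H4C1, H4C2, H4C4, H4C7 and H4C13 had 3.07 to 4.83 in vector, 3.16 to 4.59 in siRNA and 3.50 to 5.10 in control cells. H4C16, a single gene on chromosome 12, had 4.56 in vector, 4.66 in siRNA and 4.77 in control cells.

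The 9 probe sets that named several symbols cannot be assigned to a gene. Their medians were -0.10 for vector over control, -0.27 for siRNA over control and 0.15 for vector over siRNA. The siRNA array was lowest for 7 of the 9, against 33.8% of all probe sets. Both probe sets of the duplicated genes H2AC18 and H2AC19 passed 2-fold downwards in siRNA cells. With the call below they made 3 of 9, against 1.12% of all probe sets, and 0 were left after centring. They had 9.47 in vector, 8.51 in siRNA and 9.67 in control cells, and 9.14 in vector, 8.16 in siRNA and 9.23 in control cells. As for H1-2, siRNA alone stood apart. The last call was the probe set shared by H4C12 and H4C11, with 9.26 in vector, 8.89 in siRNA and 10.02 in control cells, where both arms were below control. H4C14 and H4C15 shared a probe set with 7.06 in vector, 6.36 in siRNA and 7.16 in control cells. The 3 probe sets for H3C14 and H3C15, 1 of which also named H3-7 and H3C13, had 2.99 to 3.03 in vector, 3.01 to 3.41 in siRNA and 3.08 to 3.37 in control cells, near background. A probe set shared by H2AC7 and H3C4 had 4.06 in vector, 3.91 in siRNA and 4.10 in control cells, and another of H4C14 and H4C15 had 3.08 in vector, 3.05 in siRNA and 3.32 in control cells.

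By locus, the medians on chromosomes 6 and 1 were lowest in siRNA cells. On chromosome 6, 88 single-symbol probe sets of 54 genes had medians of -0.30 for vector over control, -0.58 for siRNA over control and 0.23 for vector over siRNA. On chromosome 1, 16 probe sets of 7 genes had -0.15, -0.41 and 0.10. On chromosome 12, the 1 probe set, of H4C16, had -0.20, -0.11 and -0.10, so vector was lowest there. Splitting chromosome 6 where neighbouring histone genes lie over 400000 bases apart gave groups of 55, 10 and 23 probe sets, with medians for siRNA over control of -0.58, -0.59 and -0.52.

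Many H2A and H2B genes stand head to head and share the sequence between them. For the 11 such pairs with a single-symbol probe set on both sides, the brightest probe set of each gene was compared. Both partners were lower in siRNA than in control cells in 10 pairs, and both were higher in vector than in siRNA cells in 7. Of all 105 single-symbol histone probe sets, 103 were lower in siRNA than in control cells and 79 higher in vector than in siRNA cells. Whether partners went together more often than unpaired histone genes was not tested. For vector over control, partners differed in sign in 6 of 11, both being lower in 4 and higher in 1. H2AC6 and H2BC4 differed by 0.83 and 0.87 for vector over siRNA. In other pairs the partners parted, H2AC11 differing by 0.00 and H2BC11 by -1.31 for siRNA over control. That gap rests on the brightest probe sets. The dimmer ones gave -0.74 for H2AC11, and -0.58 and -0.11 for H2BC11. H2AC20 and H2BC21 differed by -0.99 and 0.24 for vector over control. The median gap within a pair was 0.49 for vector over control, 0.26 for siRNA over control and 0.47 for vector over siRNA.

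**Figure D4:**
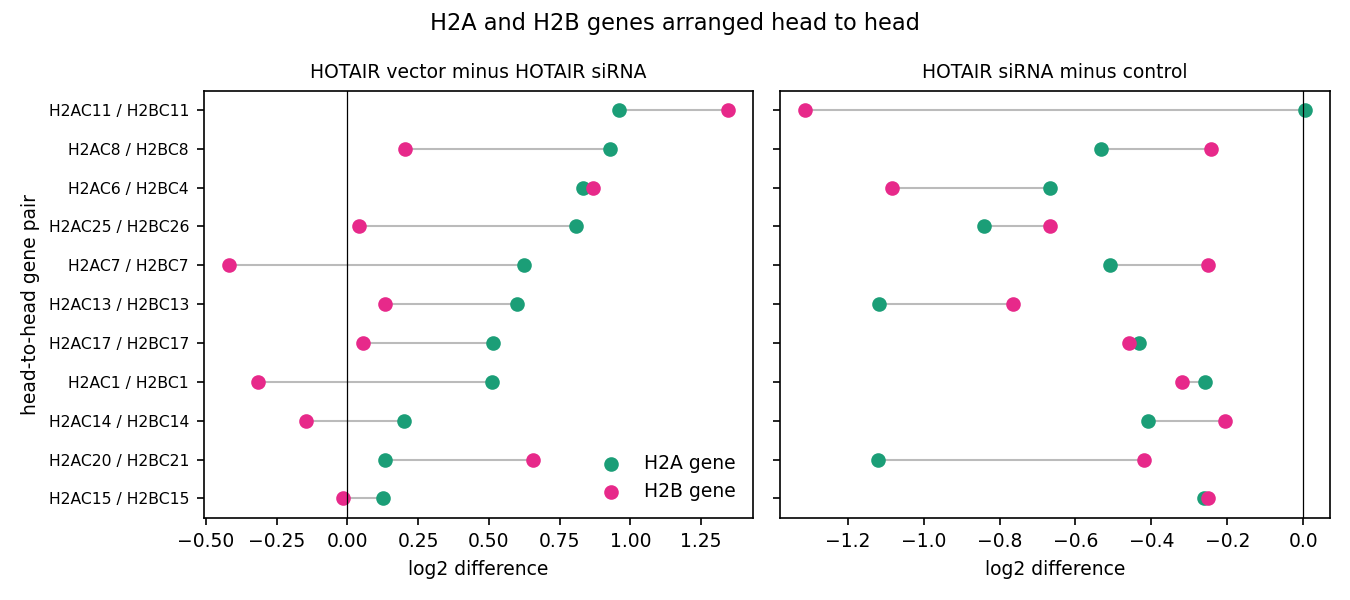
Log2 difference (horizontal axis) of the H2A gene (green) and the H2B gene (pink) in each of 11 head-to-head pairs (rows), for vector over siRNA (left) and siRNA over control (right), with a line joining partners. In 10 pairs both partners lie left of 0 for siRNA over control, where 103 of all 105 single-symbol histone probe sets lie. H2AC11 with H2BC11 has the widest gap for siRNA over control (0.00 and -1.31) on the brightest probe set of each gene, which their dimmer probe sets do not repeat.

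With 1 array per group, the spread between probe sets of 1 gene is the only spread these arrays give. Over the 29 histone genes with at least 2 single-symbol probe sets, the pooled SD between them was 0.28 for vector over control, 0.30 for siRNA over control and 0.25 for vector over siRNA. Over all 11734 such genes it was 0.42, 0.42 and 0.26. Probe sets of a histone gene differed in sign in 8 of 29 genes for vector over control, 2 for siRNA over control and 8 for vector over siRNA. This spread holds probe differences, cross-hybridisation and measurement noise of the probe sets on these arrays, and not the spread between cultures. Both identical H2BC21 probe sets are counted in it. The 2-fold calls of H2BC11 and H2BC10 in siRNA cells each rest on 1 of 3 probe sets of the gene, and those of H2BC9 on 2 of 3.

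Genes that serve the histones were followed by lists, each gene by its single-symbol probe set with the highest mean. Over all 18132 genes the medians were -0.22 for vector over control, -0.19 for siRNA over control and -0.01 for vector over siRNA. Of 28 measured genes for histone gene transcription and mRNA 3' end processing, with medians of 0.03, 0.09 and 0.05, 6 passed 2-fold upwards in vector cells against control cells, next to 10.1% of all genes, and 0 downwards, next to 1.45%. In siRNA cells 4 were higher than control, against 9.81%, and 1 lower, against 1.19%. Between the arms 1 was higher in vector cells, against 1.37%, and 0 lower, against 1.46%. CASP8AP2, which works with NPAT in histone locus bodies of the nucleus, had 8.0 in vector, 6.92 in siRNA and 4.80 in control cells. NPAT, the coactivator that drives histone genes, had 8.01 in vector, 7.62 in siRNA and 6.00 in control cells. ERI1, a nuclease that trims histone mRNA ends, had 9.09 in vector, 9.01 in siRNA and 7.73 in control cells. All 3, named because they passed 2-fold, were higher in both arms than in control cells. Other genes of the list were lower in both arms, and its medians over control were only 0.03 and 0.09.

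CPSF2, a subunit of the cleavage complex, was higher than control by 1.28 in vector and 0.92 in siRNA cells. The uridylyl transferases TUT7 and TUT4, which mark histone mRNA for decay, were higher by 1.15 and 1.01 in vector and by 1.18 and 0.98 in siRNA cells. Means over probe sets, for vector and siRNA over control, were 0.79 and 0.57 for TUT7 and 1.23 and 1.18 for TUT4. They were 1.58 and 1.22 for NPAT and 1.54 and 1.48 for ERI1. LSM11, of the U7 particle that cuts histone pre-mRNA, had 6.88 in vector, 6.22 in siRNA and 7.32 in control cells, and was the gene of this list that was 2-fold lower (siRNA over control -1.10). Its mean over probe sets was -0.71. SLBP had 10.80 in vector, 10.96 in siRNA and 10.82 in control cells, with no difference past 0.16.

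Replacement and variant histones are made in and outside S phase, mostly from polyadenylated mRNA. For 15 measured genes the medians were -0.19 for vector over control, -0.10 for siRNA over control and -0.07 for vector over siRNA, and 0 passed 2-fold. MACROH2A2, a large H2A variant, differed most, with 6.17 in vector, 6.14 in siRNA and 6.93 in control cells. The oocyte linker histone H1-8 had 3.42 in vector, 3.30 in siRNA and 4.09 in control cells, near background. H2AZ1 had 13.43 in vector, 13.48 in siRNA and 13.38 in control cells.

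In the S phase and replication list, 35 genes had medians of -0.37 for vector over control, -0.17 for siRNA over control and -0.16 for vector over siRNA. Their median thus lay lower in vector than in siRNA cells, where that of the histones lay higher (0.22). The 2 are unlike measures, the histone median being over all 105 probe sets and that of the list over 1 probe set per gene. What the contrast means was not tested. In vector cells 2 were 2-fold higher than control and 1 lower, and in siRNA cells 3 were higher and 0 lower, against 10.1% and 1.45% of all genes in vector and 9.81% and 1.19% in siRNA cells. CCNE2, cyclin E2, was higher than control by 3.47 in vector and 3.27 in siRNA cells, PRIM1 by 1.01 and 1.21, and RFC3 by 0.98 and 1.16. GINS4, of the replicative helicase, differed by -1.11 in vector and -0.44 in siRNA cells. Means over probe sets were 2.62 and 2.20 for CCNE2, 0.36 and 0.60 for RFC3 and -0.70 and -0.32 for GINS4, while PRIM1 had 1 probe set.

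For 25 histone chaperone and assembly genes the medians were -0.06, 0.07 and -0.10, with 4 higher and 0 lower than control in the vector arm and 4 higher and 1 lower in the siRNA arm. Among all genes, 10.1% were higher and 1.45% lower in the vector arm, and 9.81% higher and 1.19% lower in the siRNA arm. ATRX, which deposits H3.3 with DAXX, was higher than control by 2.90 in vector and 2.27 in siRNA cells. HAT1, which acetylates new H4, was higher by 1.64 and 1.11, and the importin IPO4 differed by -0.93 and -1.20. ANP32E, a chaperone of H2A.Z, was higher than control by 1.51 in vector and 1.69 in siRNA cells. MMS22L, of the replication fork, was higher by 1.46 and 1.32. Means over probe sets, for vector and siRNA over control, were 1.75 and 1.33 for ATRX and 1.13 and 0.85 for ANP32E. The siRNA mean of ANP32E was thus below 2-fold, and its vector over siRNA value turned from -0.18 to 0.27. Means of HAT1 and MMS22L stayed past 2-fold in both arms, while IPO4 had 1 probe set. For 12 polyadenylation genes the medians were -0.20, -0.21 and -0.02, with 2 higher in vector cells and 1 in siRNA cells, and 0 lower, against 10.1% and 9.81% of all genes higher and 1.45% and 1.19% lower. For so short a list these counts are near the shares. With the mean over a gene's probe sets, the median of this list for vector over control turned to 0.25. PCF11 was higher than control by 1.82 in vector and 1.83 in siRNA cells, and PAPOLG by 1.02 and 0.86. Their means over probe sets were 1.13 and 1.04 for PCF11 and 0.57 and 0.50 for PAPOLG. The part of these genes in the histone values was not tested.

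Finally, 24 genes other than histones from the same region of chromosome 6 had medians of -0.01 for vector over control, -0.01 for siRNA over control and 0.04 for vector over siRNA. Of these, 3 were 2-fold higher in the vector arm and 2 in the siRNA arm, always over control, and 0 were lower. These counts are near the 10.1% and 9.81% of all genes that were higher, and the 1.45% and 1.19% that were lower. ZNF184 was higher than control by 2.79 in vector and 3.32 in siRNA cells, ZNF322 by 1.97 and 2.07, and TRIM38 by 1.21 and 0.78. Means over probe sets were 1.77 and 1.53 for ZNF322 and 0.93 and 0.30 for TRIM38, while ZNF184 had 1 probe set.

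**Figure D5:**
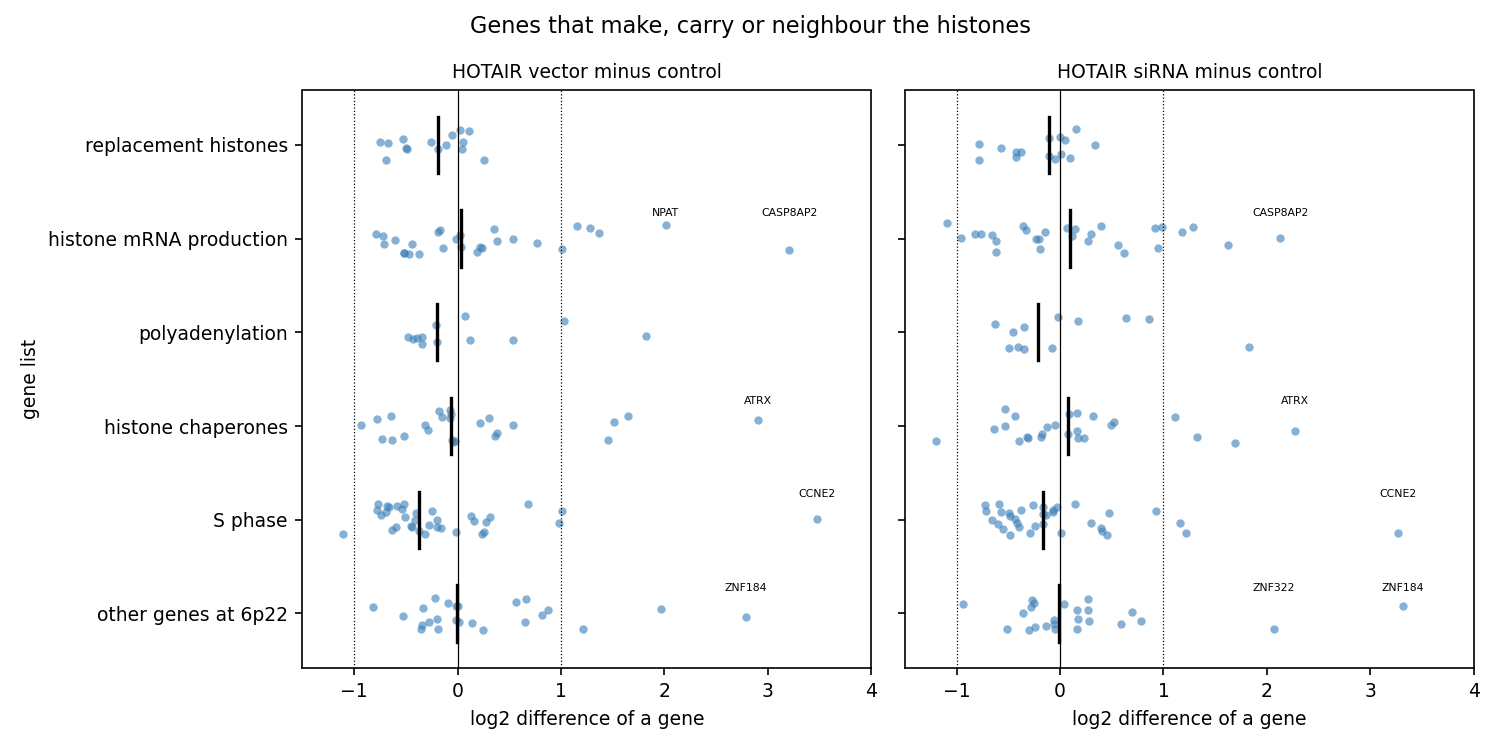
Log2 difference from control (horizontal axis) of each measured gene (points) in 6 lists (rows), for vector over control (left) and siRNA over control (right), with a bar at each list's median and dotted lines at 2-fold. The histone mRNA production list holds CASP8AP2 at 3.21 in vector and 2.13 in siRNA cells, and no replacement histone passes 2-fold.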

How the data were processed

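RMA, named in the submitters' processing notes, gave the deposited signals, 1 log2 value per probe set. That scale was read from their range, and version and settings of RMA were not given in the sources used here. Labelling with biotin used a 3' IVT kit, per the labels' protocols. The groups came from the sample labels, and each of the 3 differences was taken per probe set with no filter. No test was possible at 1 array per group, and the number of arrays limits the precision. Calls are at least 2-fold, set beside the share of all probe sets (or genes, for lists) past the same fold. Symbols came from the platform's annotation, which gave 1 symbol for 44988 probe sets, several for 1832 and none for 2473. H1-10, which shares a prefix with the members, was kept with the variant histones, and 3 probe sets of it and its antisense gene were left out.

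The members and lists were chosen with earlier results of these data known. The rule for named genes gives in full the probe sets with a mean at or above the median of all means, the largest differences and genes with 2 or more probe sets. For some dim genes of this kind ranges are given. From the other lists it takes members past 2-fold, or else the most different, and SLBP, H2AZ1 and the dim genes named for contrast were added after their values were seen. Alternatives were repeated quantile normalization, cyclic loess (span 0.4, 3 cycles), centring, 2 signal filters, leaving out probe sets ending in _x_at or _s_at, 1 value per gene and a 1.5-fold threshold. The steps were tested on simulated arrays. Software was Python 3.11.15, pandas 2.3.3, numpy 2.4.6, statsmodels 0.14.6 for loess, scipy 1.17.1 and matplotlib 3.10.9.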

Additional observations from a re-analysis of the deposited data

How the results depend on the processing

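No paired analysis was possible because each group had 1 array. Over all alternatives the median of the single-symbol histone probe sets ran from -0.34 to 0.12 for vector over control, from -0.68 to -0.32 for siRNA over control and from 0.17 to 0.81 for vector over siRNA. The 0.12 and the 0.81 came from keeping only probe sets at or above the 75th percentile of signal. The 11 probe sets that were 2-fold lower in siRNA than in control cells became 2 after cyclic loess, 3 after centring, 7 and 1 with the median and 75th percentile filters, 4 without _x_at and _s_at probe sets, 3 with the mean per gene and 44 at 1.5-fold. The 2 that were higher in vector than in siRNA cells became 1 with the median filter, 0 with the 75th percentile filter, 0 without _x_at and _s_at probe sets, 0 with the mean per gene and 19 at 1.5-fold. For vector over control, where 0 were higher and 0 lower, cyclic loess gave 2 higher, centring 1 higher, quantile normalization 3 lower and 1.5-fold 3 higher and 25 lower. Among several-symbol probe sets, the 3 lower in siRNA cells became 0 after centring and 0 without _x_at and _s_at probe sets, and 1.5-fold gave 1 lower for vector over control and 3 higher for vector over siRNA. Their median under the median and 75th percentile filters was -1.10 and -1.14 for siRNA over control, and 0.83 and 0.96 for vector over siRNA. The filters and the mean per gene leave fewer probe sets to count, and for the other changes the cause was not tested. Signals near background limit the 69 dimmer probe sets.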

Other observations

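H1-10, a linker histone outside S phase control, had 10.40 in vector, 10.67 in siRNA and 11.10 in control cells, so vector was lowest, unlike for H1-2. Its antisense gene H1-10-AS1 had 4.08 in vector, 4.10 in siRNA and 4.78 in control cells. The 2 H2BC21 probe sets with equal values on all 3 arrays were the only such pair in the table, and 136 of 49293 probe sets, 2 of them for H2AC13, had equal values in vector and control cells.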
